A study of Mus musculus with 16 samples.

Results

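The genes described here are 45 mouse genes of S phase and mitosis, followed across 4 treatments that set the level of Nodal/Activin signaling and 4 passages of E14TG2a embryonic stem (ES) cells. They were taken by gene symbol from a list chosen with earlier results of these data known. Each gene was read from its brightest probe on an Illumina MouseRef-8 v2.0 array. Of the 45 genes, 40 had a probe under their symbol (59 probes), out of 15967 genes and 24606 probes in all. Ccnb1, Kif20a, Cenpf, Mki67 and Mcm3 had none and are not analysed here. In 34 genes the probe was above background on all 16 arrays. In the other 6 (Ccnb2, Bub1, Kif11, Cenpe, Orc1 and Pola1) it was above background on no array. Above background means brighter than the 95th percentile of 1189 probes for odour, pheromone and taste receptors on the same array.

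All cultures came from the HPRT-deficient line E14TG2a and had spent 6 h in KSR, a serum replacement medium without LIF, together with SB-431542 (SB) at 10 µM. This drug inhibits the receptor kinases that pass on Activin and Nodal signals. The next 18 h were spent with 25 ng/ml Activin (high signaling), with 10 µM SB (low signaling), with the vehicle DMSO at a dilution of 1 in 5000 or in KSR alone (both endogenous signaling). Each treatment was sampled at passages 20, 21, 23 and 24, 1 culture each, which gave 4 arrays a group and 16 in all. The labels give the treatments a passage number in common but do not say whether the 4 cultures of a passage were split from the same cells, and a passage cannot be told apart from its day, its handling or any batch of arrays. The p-values of the passage comparisons measure only the spread among cultures within passages. Mean intensity ran between 486 and 760 per array and 9816 to 10482 probes were above background. Of the ES cell markers 9 of 9 were above background, while 7 of 10 fibroblast markers, Col1a1 and Col3a1 among them, were above background on no array.

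Passage through the cell cycle is driven by cyclin-dependent kinases. Cells license replication origins with the MCM helicase, copy their DNA with the clamp PCNA and the nucleotides made by ribonucleotide reductase and thymidylate synthase, and then divide under cyclin B with CDK1, the Aurora and Polo kinases and the spindle checkpoint. Transcription of the replication genes is classically tied to E2F factors, and that of the mitosis genes to CCAAT boxes and to the cell cycle homology region (CHR) bound by the MuvB complex. Mouse ES cells divide quickly, with a short G1 phase and a large share of cells in S phase, so these genes are active in most undifferentiated cultures.

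The promoters of the family carried these elements. RefSeq promoters (build GRCm38.p6) were found for 38 of the 45 genes, and the 250 bases before the start of each were searched on both strands. CCAAT was present in 31 of 38 (81.6%), against 34.5% of 27018 promoters of the same length. The CHR letters TTTGAA were in 10 of 38 (26.3%), against 16.3% of all. An E2F core (the letters TTGGCGC, or the variant TTCGCGC, or the variant TTCCCGC, or the variant TTGCCGC) was in 13 of 38 (34.2%), against 7.97% of all. E2F cores were in 9 of 14 replication promoters and 4 of 24 mitosis promoters, whereas the CHR letters were in 9 mitosis promoters and 1 replication promoter. CCAAT was about as frequent in both, in 20 of 24 mitosis promoters (83.3%) and 11 of 14 replication promoters (78.6%). CCAAT read on the other strand, as ATTGG, can share letters with the E2F core TTGGCGC, which happened in none of the promoters printed here. A match describes letters only and was not taken as a binding site.

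The promoters of Pcna, Ttk and Nusap1, which were higher at passage 24 than at passage 23, and of Cenpa, which was lower at the later passages, are printed 5′ to 3′ on the strand of the gene. Those of Cdk1, Ube2c and Mcm6 are added as examples that hold several of the elements. Capitals mark the matches. Pcna lies at chr2:132253181-132253430 (minus strand), Ttk at chr9:83834439-83834688 (plus), Nusap1 at chr2:119618048-119618297 (plus), Cenpa at chr5:30666636-30666885 (plus), Cdk1 at chr10:69352913-69353162 (minus), Ube2c at chr2:164769679-164769928 (plus) and Mcm6 at chr1:128359706-128359955 (minus).
Pcna: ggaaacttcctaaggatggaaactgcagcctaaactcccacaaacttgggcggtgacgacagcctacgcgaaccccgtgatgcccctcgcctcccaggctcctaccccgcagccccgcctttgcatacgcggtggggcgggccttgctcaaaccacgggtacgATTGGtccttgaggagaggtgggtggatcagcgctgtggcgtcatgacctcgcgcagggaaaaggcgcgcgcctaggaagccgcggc
Ttk: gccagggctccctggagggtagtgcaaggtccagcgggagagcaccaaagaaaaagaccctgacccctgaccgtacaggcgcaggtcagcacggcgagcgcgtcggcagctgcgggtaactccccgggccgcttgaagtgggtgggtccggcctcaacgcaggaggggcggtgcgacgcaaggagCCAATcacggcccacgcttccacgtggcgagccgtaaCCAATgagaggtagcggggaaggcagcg
Nusap1: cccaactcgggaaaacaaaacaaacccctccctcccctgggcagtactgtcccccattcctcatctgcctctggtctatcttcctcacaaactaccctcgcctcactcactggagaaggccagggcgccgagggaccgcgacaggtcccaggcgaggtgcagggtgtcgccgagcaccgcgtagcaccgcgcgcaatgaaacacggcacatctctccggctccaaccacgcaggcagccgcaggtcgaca
Cenpa: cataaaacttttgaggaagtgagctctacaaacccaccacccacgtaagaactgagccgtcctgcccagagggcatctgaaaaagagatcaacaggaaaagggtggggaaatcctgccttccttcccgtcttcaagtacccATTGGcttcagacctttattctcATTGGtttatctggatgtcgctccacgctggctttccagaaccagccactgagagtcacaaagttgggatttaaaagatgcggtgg
Cdk1: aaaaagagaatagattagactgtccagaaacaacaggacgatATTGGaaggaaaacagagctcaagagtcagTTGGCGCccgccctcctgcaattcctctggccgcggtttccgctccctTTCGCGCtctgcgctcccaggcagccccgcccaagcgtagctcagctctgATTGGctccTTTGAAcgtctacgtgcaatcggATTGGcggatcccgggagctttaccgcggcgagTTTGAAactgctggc
Ube2c: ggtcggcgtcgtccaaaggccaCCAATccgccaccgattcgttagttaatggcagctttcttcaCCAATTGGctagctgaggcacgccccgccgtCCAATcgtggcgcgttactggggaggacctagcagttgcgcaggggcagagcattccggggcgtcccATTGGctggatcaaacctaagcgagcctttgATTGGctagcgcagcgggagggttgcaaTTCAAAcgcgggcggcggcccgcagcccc
Mcm6: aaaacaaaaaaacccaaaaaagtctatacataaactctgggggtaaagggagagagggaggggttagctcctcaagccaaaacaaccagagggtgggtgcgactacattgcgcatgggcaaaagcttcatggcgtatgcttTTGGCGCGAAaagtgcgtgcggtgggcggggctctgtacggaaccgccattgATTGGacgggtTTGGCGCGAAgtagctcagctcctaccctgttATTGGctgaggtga
Cdk1 held 3 CCAAT, 2 CHR and 2 E2F matches, Ube2c held 6 CCAAT and 1 CHR matches, and Mcm6 held 2 CCAAT and 4 E2F matches. Each marked TTGGCGCGAA of Mcm6 counts as 1 E2F match on each strand, with shared letters. The same holds for CCAAT in the stretch CCAATTGG of Ube2c. Ttk and Cenpa held 2 CCAAT matches each and Pcna 1, with no match to the other letters, and Nusap1 held no match. Of the members called below, Ccna2 and Gmnn had no RefSeq promoter in the table used here.

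To find out whether the level of signaling moved proliferation genes after 18 h, each treatment was compared with DMSO and with its opposite. None of the 40 genes was called higher or lower with Activin or with SB. With limma (Benjamini-Hochberg over all 24606 probes, threshold 0.05), 0 of 40 passed for Activin minus DMSO, SB minus DMSO, Activin minus SB and DMSO minus KSR. At an unadjusted p under 0.05 the counts were 1, 0, 0 and 1, the gene in both cases being Ccnb2, above background on no array, against 3.58%, 5.74%, 7.7% and 3.27% of all probes. Over all probes 0.0203% passed for Activin minus DMSO, 0.309% for SB minus DMSO, 0.898% for Activin minus SB and 0% for DMSO minus KSR, so that few members would be called at the background rate.

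The intervals show how far each gene could have moved on the scale of the main processing. They were not computed with other processing, so they do not bound the changes on another scale. In each treatment comparison the 95% interval of the change stayed inside 1.5-fold in both directions for 34 of 34 genes above background. The bounds farthest from 0 among these genes were log2 changes of -0.55 (Ttk, SB minus DMSO) and 0.51 (Ttk, DMSO minus KSR). The median log2 change of the 40 genes was 0.01 for Activin minus DMSO, 0.00 for SB minus DMSO, 0.02 for Activin minus SB and -0.02 for DMSO minus KSR, with all probes at medians of 0.00. Genes above background ranged between -0.14 (Ccna2) and 0.14 (Rfc3) for Activin minus DMSO, between -0.21 (Ttk) and 0.12 (Tpx2) for SB minus DMSO and between -0.16 (Bub1b) and 0.20 (Gmnn) for Activin minus SB. These values are averages over whole cultures, in which fewer cells of a type and less RNA per cell cannot be told apart, and the share of cells in each phase was not measured here.

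**Figure D1:**
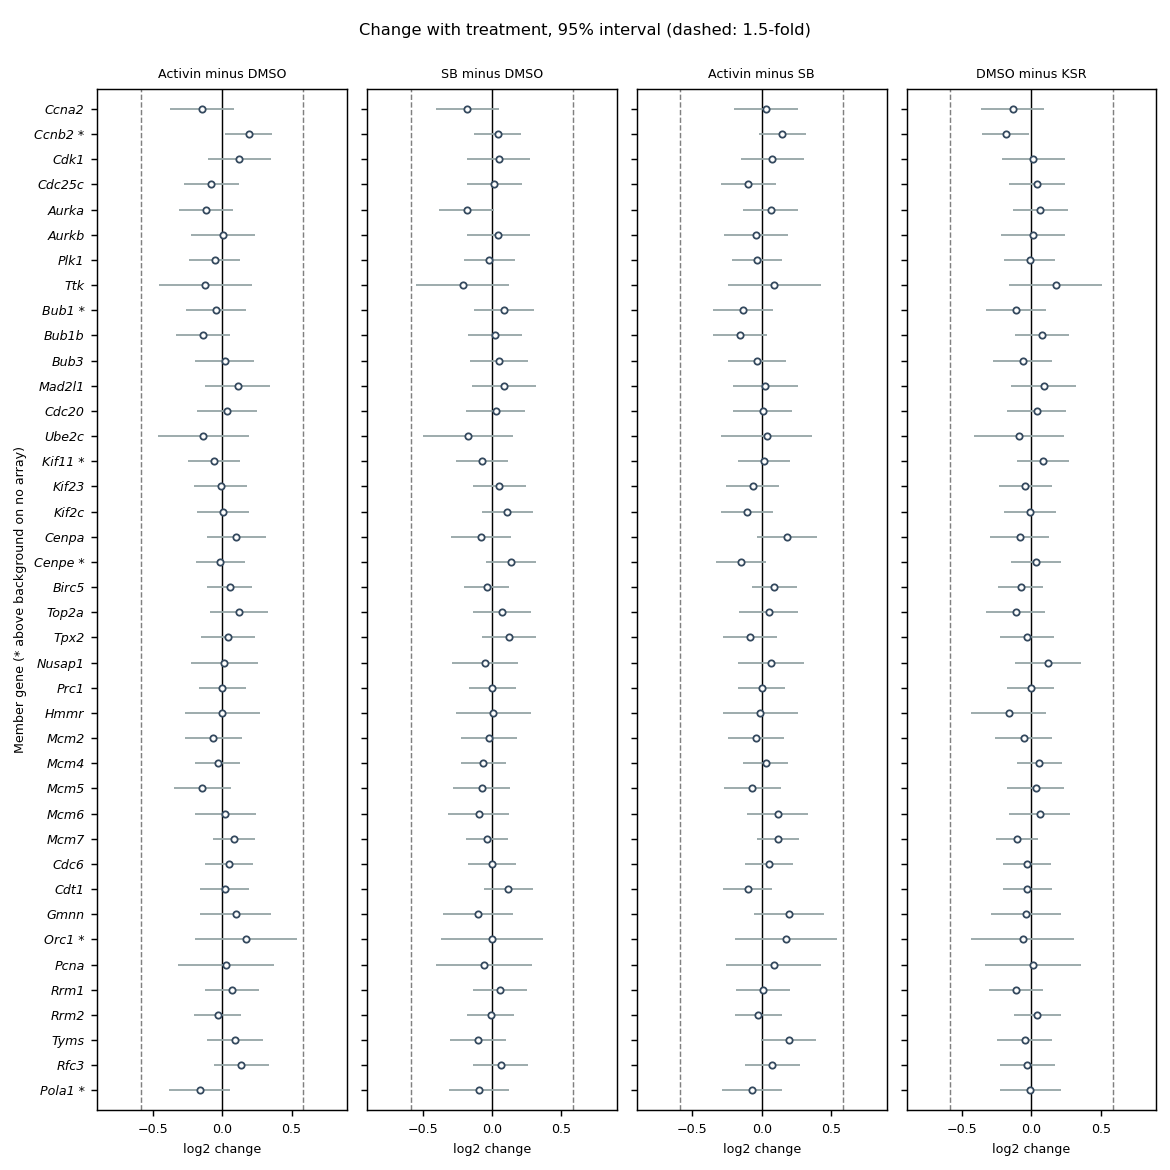
Log2 change of each of the 40 measured genes (rows) in 4 treatment comparisons (panels), with limma's 95% interval as a bar and dashed lines at 1.5-fold. Every interval lies between the dashed lines, and no gene passed the adjusted threshold.

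The same arrays recorded a strong response of the pathway itself. Lefty1, a feedback inhibitor of Nodal, stood at 13.33 ± 0.23 with Activin and 6.95 ± 0.27 with SB, against 12.04 ± 0.44 with DMSO (log2 intensity, mean ± SD, n = 4 here and below). Of 8 measured Nodal target genes 3 were higher with Activin and 7 were lower with SB than with DMSO. Of 10 trophectoderm markers 2 were higher with SB than with DMSO and 0 lower, with a list median of 0.03 and a lowest log2 change of -0.22. They were Tfap2c (log2 change 0.61, adjusted p = 0.00676) and Gata3 (adjusted p = 0.00433), whose probe was above background on only 4 of the 16 arrays. The summed non-normalized intensity of the 10 trophectoderm markers was 2170 to 3088 in Activin cultures and 3933 to 4397 in SB cultures, against 2948 to 3255 in DMSO cultures. Such a sum is weighted toward bright markers and does not show a rise of the whole list. Tfap2c alone stood at 10.80 ± 0.22 with Activin, 11.78 ± 0.11 with SB and 11.17 ± 0.16 with DMSO. Of the 10 markers, 3 (Elf5, Hand1 and Tead4) were above background on no array. Their part in the values of the S phase and mitosis genes was not tested.

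Cdk1, the kinase that starts mitosis, read 11.43, 11.81, 11.49 and 11.76 with Activin at passages 20, 21, 23 and 24. It read 11.50, 11.49, 11.50 and 11.69 with SB, against 11.50, 11.44, 11.41 and 11.64 with DMSO and 11.57, 11.19, 11.42 and 11.76 in KSR alone (log2 intensity). The groups overlapped, with Activin minus DMSO at a log2 change of 0.12 (95% interval -0.10 to 0.35) and SB minus DMSO at 0.05 (-0.18 to 0.27). Aurkb, the kinase of the chromosomal passenger complex, read 10.78, 10.77, 10.73 and 10.88 with Activin. It read 10.74, 10.48, 10.96 and 11.13 with SB and 10.63, 10.74, 10.86 and 10.89 with DMSO. The SB values reached both lower and higher than those of the other groups, and Activin minus SB was -0.04 (95% interval -0.27 to 0.19). Plk1, the Polo kinase, ranged from 12.01 to 12.12 with Activin, from 11.87 to 12.26 with SB and from 12.04 to 12.19 with DMSO, again with overlap.

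Of the genes of the checkpoint and of chromosome structure, Cdc20, the activator of the anaphase-promoting complex, read 12.13, 11.86, 11.99 and 11.96 with Activin and 12.24, 11.89, 11.92 and 11.86 with SB. With DMSO it read 12.03, 11.83, 12.09 and 11.84. In each group passage 21 was below passage 20, and the treatments overlapped. Top2a, the topoisomerase that untangles chromosomes, read 12.06, 12.04, 11.998 and 12.36 with Activin, 12.001, 11.84, 12.04 and 12.37 with SB and 11.99, 12.06, 12.09 and 11.82 with DMSO. The Activin and SB cultures of passage 24 were its highest values, while the DMSO culture of that passage was its lowest. Bub1, a checkpoint kinase, and Kif11, the motor that separates spindle poles, were not above background on any array, so no change is given for them.

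Mcm2 and Mcm5, subunits of the replicative helicase, stayed close to DMSO. Mcm2 read 12.24, 12.34, 12.37 and 12.23 with Activin and 12.53, 12.23, 12.31 and 12.27 with SB, against 12.52, 12.32, 12.37 and 12.22 with DMSO. Mcm5 read 13.66, 13.54, 13.84 and 13.69 with Activin and 13.83, 13.46, 13.96 and 13.75 with SB, against 13.82, 13.82, 13.92 and 13.74 with DMSO. The Activin value of Mcm5 was below the DMSO value at each of the 4 passages (log2 change -0.14, 95% interval -0.35 to 0.06), yet the groups overlapped. Cdt1, which loads the helicase onto origins, read 12.21, 12.02, 12.22 and 12.12 with Activin and 12.35, 12.20, 12.27 and 12.15 with SB, against 12.28, 12.07, 12.13 and 12.03 with DMSO. Its SB value was above its DMSO value at each passage, and its groups overlapped. Cdt1 had a log2 change of 0.02 (95% interval -0.16 to 0.19) for Activin minus DMSO and 0.12 (-0.06 to 0.29) for SB minus DMSO.

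Of the genes that supply nucleotides, Rrm2, the small subunit of ribonucleotide reductase, read 10.43, 10.38, 10.49 and 10.48 with Activin and 10.57, 10.44, 10.30 and 10.56 with SB. With DMSO it read 10.57, 10.49, 10.37 and 10.46, and its changes were -0.03 for Activin minus DMSO and -0.01 for SB minus DMSO. Tyms, thymidylate synthase, read 11.51, 11.44, 11.58 and 11.71 with Activin, against 11.41, 11.41, 11.34 and 11.31 with SB. Here the 2 groups did not overlap, which was so for 1 of 40 genes and for 4.58% of all probes. The log2 change of Tyms was 0.19 (95% interval -0.01 to 0.39, adjusted p = 0.676) and its 4 DMSO values, 11.31, 11.37, 11.53 and 11.67, overlapped both groups.

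The largest treatment differences among the genes did not pass the adjusted threshold. For Activin minus DMSO, the 3 highest were Ccnb2, Orc1 and Rfc3, a clamp loader subunit (0.14, adjusted p = 1.00), and the 3 lowest were Pola1, Ccna2, cyclin A2 (-0.14), and Mcm5. Ccnb2, Orc1 and Pola1 were above background on no array, so no change is given for them. For SB minus DMSO, the 3 highest were Cenpe, not above background either, Tpx2, an activator of Aurora A (0.12), and Cdt1, while Ttk, a checkpoint kinase, was at -0.21, Aurka, Aurora A itself, at -0.18 and Ccna2 at -0.18. The smallest adjusted p of these was 0.918. For Activin minus SB, Gmnn, geminin, the inhibitor of Cdt1, was at 0.20, Tyms at 0.19 and Cenpa, the centromeric histone, at 0.18, while Bub1b, a checkpoint kinase, was at -0.16, followed by the background readings of Cenpe and Bub1. For DMSO minus KSR, Ttk (0.17), Nusap1, a spindle protein (0.12), and Mad2l1, a checkpoint protein (0.09), were highest. Ccnb2, at background, Hmmr, a spindle-associated hyaluronan receptor (-0.16), and Ccna2 (-0.14) were lowest, and the adjusted p of these 6 genes was 1.00.

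Related genes outside the family gave the same counts. Of 37 other replication genes, 40 other mitosis genes, 22 E2F, Rb and MuvB regulators, 14 p53 target genes and 13 reference genes with a probe, 0 passed in each of the 4 treatment comparisons with limma. Their median log2 changes lay between -0.02 and 0.03.

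**Figure D2:**
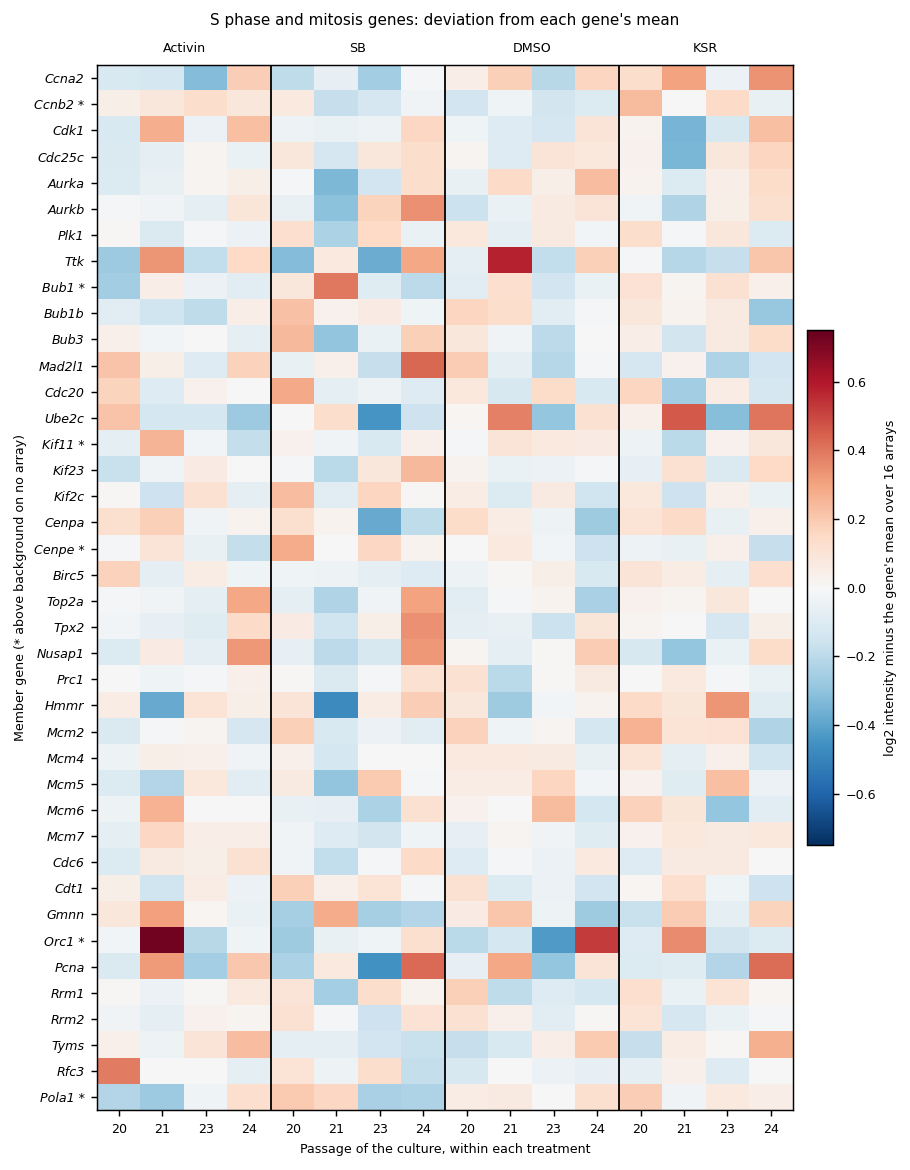
Log2 intensity of 40 genes (rows) minus each gene's mean over 16 arrays, by treatment and passage (columns), in colour from blue (lower) to red (higher), with an asterisk for the 6 genes above background on no array. In the rows of Pcna and Ccna2 the passage 24 column of each treatment is redder than the passage 23 column.

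Differences among passages were called where those among treatments were not. A joint test for any difference among the 4 passages (limma F test with treatment in the model) called 8 of 40 genes (20%), against 7.18% of all probes. Among genes above background it was 8 of 34 (23.5%), against 14.7% of 10740 such probes. Because the list was chosen with earlier results of these data known, these shares describe it and do not test it. The 8 were Pcna (adjusted p = 0.00268), Ccna2 (0.0127), Nusap1 (0.0160), Ttk (0.0207), Cdc20 (0.0384), Ube2c (0.0416), Gmnn (0.0447) and Hmmr (0.0474). Of these only Pcna, Ccna2, Nusap1 and Ttk were called by a comparison of neighbouring passages as well. The count was 2 without the SB culture of passage 24 and between 2 and 7 when each of the 16 arrays was left out in turn. The median deviation over the 34 genes above background stayed between -0.09 and 0.07 on each of the 16 arrays.

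**Figure D3:**
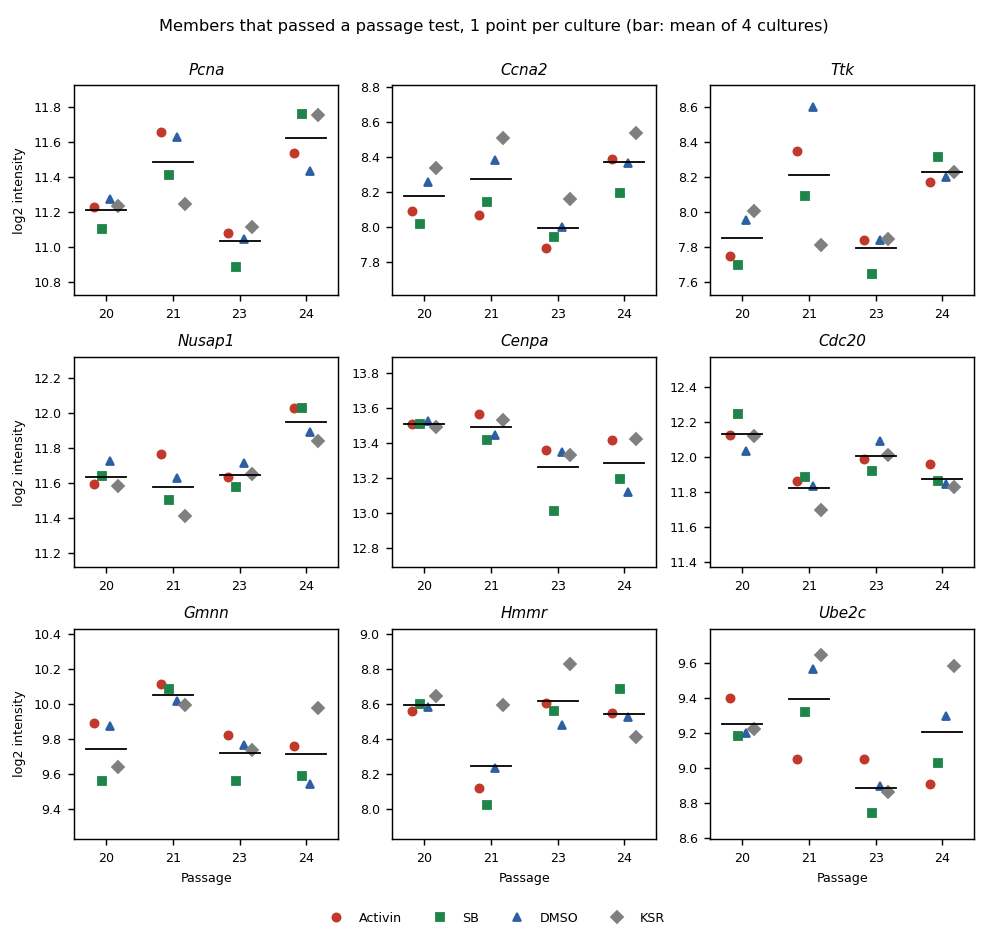
Log2 intensity (vertical axes, each spanning the same range) of the 9 genes that passed a passage test, by passage (horizontal axes), with 1 point per culture coloured by treatment and a bar at the mean of 4 cultures. The mean bars of Pcna, Ccna2 and Ttk are higher at passages 21 and 24 than at passage 23, while Nusap1 is high at passage 24 and Cenpa low at passages 23 and 24.

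Of the comparisons between passages or pairs of passages, that of 24 with 23 called the most genes. It was made with passage 24 known from earlier results of these data to stand apart. The gene list, too, was chosen with earlier results known. At passage 24, Pcna, Ttk, Ccna2 and Nusap1 were called higher and no gene lower. These were 4 of 40 (10%) higher and 0 lower, against 1.58% of all probes higher and 1.27% lower. Among probes above background 3.37% were called higher. With the main processing only Pcna was past 1.5-fold, against 0.171% of all probes. Sizes depended on the processing and the arrays used. Over the alternatives the log2 change ran from 0.49 to 0.68 for Pcna and from 0.36 to 0.64 for Ttk. For Ccna2 it ran from 0.33 to 0.55 and for Nusap1 from 0.25 to 0.40. The 2 passages did not overlap in 11 of the 34 genes above background, against 18.8% of such probes. Some of these genes were higher at passage 24 and others lower. The count of called genes was 2 without the Activin or SB cultures of passage 23 or 24 in turn, without the DMSO culture of passage 23 or without the KSR culture of passage 24.

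Pcna, the sliding clamp of DNA synthesis, read 11.53, 11.76, 11.43 and 11.75 at passage 24 in Activin, SB, DMSO and KSR, against 11.08, 10.88, 11.04 and 11.11 at passage 23. The lowest value at passage 24 was above the highest at passage 23, and each treatment showed the step. The log2 change was 0.59 ± 0.10 (SE), or 1.504-fold, with an adjusted p of 0.00299. At passage 20 Pcna read 11.22, 11.10, 11.27 and 11.23, and at passage 21 it read 11.65, 11.41, 11.63 and 11.24. The mean of passage 21, 11.48 ± 0.19, stood between those of passages 23 and 24, 11.03 ± 0.10 and 11.62 ± 0.16. Pcna was called in 26 of 27 alternatives of this comparison, the exception being the one without the SB cultures (adjusted p = 0.0574).

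Ccna2, the cyclin of S phase and early mitosis, read 8.39, 8.20, 8.36 and 8.54 at passage 24, against 7.88, 7.95, 8.0 and 8.16 at passage 23, in the same order of treatments. The groups did not overlap, and the log2 change was 0.38 ± 0.07 (1.30-fold, adjusted p = 0.00777). The call was lost in 4 of 27 alternatives, the adjusted p reaching 0.0673. Without treatment in the model it was 0.0518. Ccna2 means were 8.18 ± 0.15 at passage 20 and 8.28 ± 0.21 at passage 21.

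Ttk, the kinase that launches the spindle checkpoint, read 8.17, 8.32, 8.21 and 8.23 at passage 24, against 7.84, 7.65, 7.84 and 7.85 at passage 23. The change was 0.44 ± 0.11 (1.35-fold, adjusted p = 0.0402). Its values at passage 21, 8.35, 8.09, 8.60 and 7.81, spread over most of the range seen in the whole series. The call was lost in 15 of 27 alternatives, the adjusted p reaching 0.261 without the SB cultures.

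Nusap1, a microtubule-binding protein of the spindle, read 12.03, 12.03, 11.89 and 11.84 at passage 24, against 11.63, 11.58, 11.71 and 11.65 at passage 23. The change was 0.30 ± 0.08 (1.23-fold, adjusted p = 0.0393), with the passage 24 values above those of each other passage. A further probe of Nusap1 also rose (0.49, adjusted p = 0.0134). The call of the brighter probe was lost in 14 of 27 alternatives, all with a change of the same sign.

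The other genes of mitosis lay on both sides of 0 at passage 24 and did not pass. Cdk1 was at 0.26 (adjusted p = 0.151) and Tpx2 at 0.24 (0.0991), with no overlap between the passages, and Ube2c, the ubiquitin-conjugating enzyme of the anaphase-promoting complex, was at 0.32 (0.163). Kif2c, a kinesin that takes microtubules apart, was at -0.16 (adjusted p = 0.257) and Plk1 at -0.13 (0.427), also with no overlap, and Cdc20 was at -0.13 (0.444). Further probes of Cdc20 were at 0.06 (0.783) and 0.04 (0.887). Of the 5 helicase genes measured 0 passed, with Mcm5 at -0.20 (adjusted p = 0.170), Mcm2 at -0.17 (0.338), Mcm4 at -0.10, Mcm7 at 0.01 and Mcm6 at 0.05. Mcm5, Mcm2 and Mcm4 were lower at passage 24 with no overlap between the passages, while Mcm7 and Mcm6 overlapped. These members were chosen after their values were seen. Second probes gave different answers for the helicase, since for Mcm7 the brighter probe was at 0.01 and another at -0.60 (adjusted p = 0.00415), and for Mcm4 they were at -0.10 and -0.45 (0.0368). Of the 3 probes of Mcm6, the brightest was at 0.05 and the others at 0.50 (0.0165) and -0.04 (0.933).

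**Figure D4:**
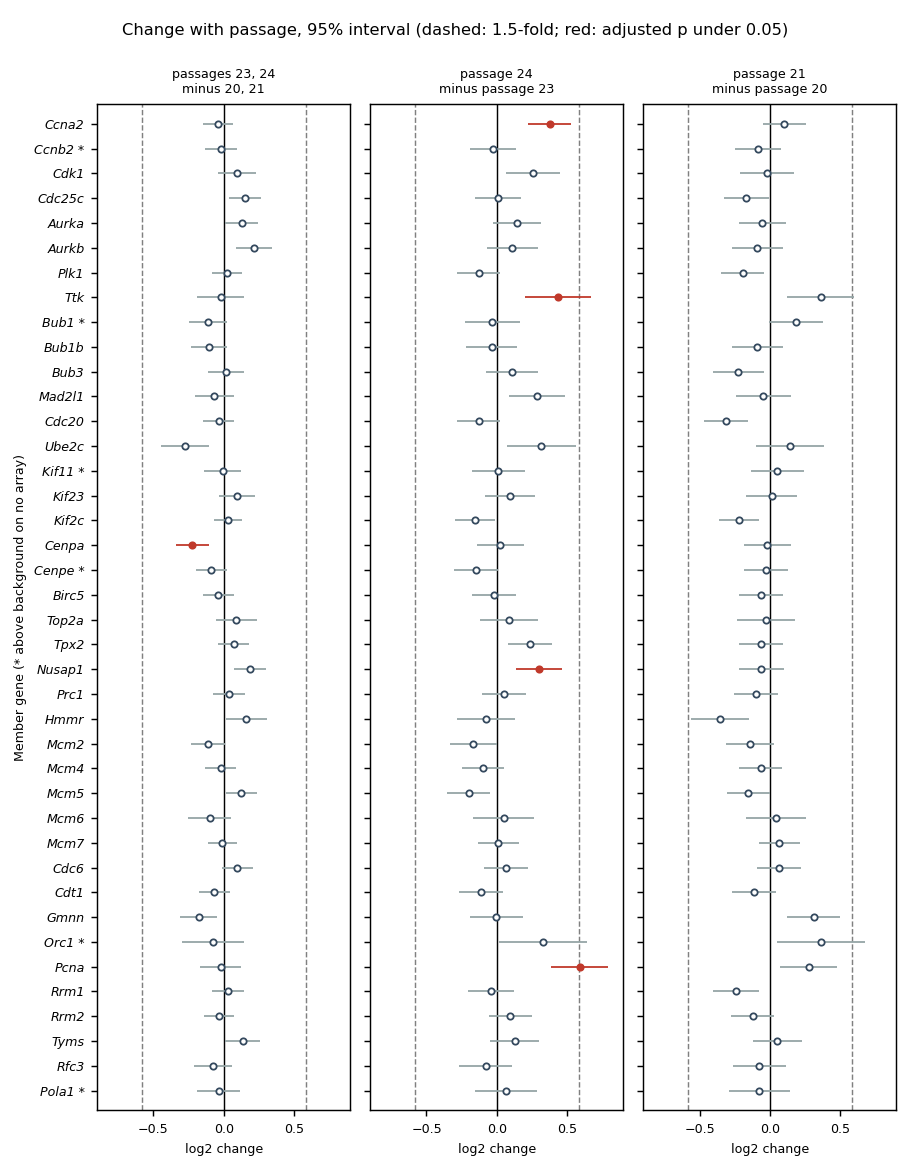
Log2 change of each of the 40 genes (rows) in 3 passage comparisons (panels), with limma's 95% interval as a bar, dashed lines at 1.5-fold and filled red points for an adjusted p under 0.05. Pcna, Ttk, Ccna2 and Nusap1 are red in the comparison of passage 24 with passage 23 and Cenpa in that of the later with the earlier passages, while no gene is red between passages 21 and 20.

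The later passages as a pair were compared with the earlier pair to see whether the genes drifted with time in culture. Cenpa fell, and 1 of 40 genes was called in all, against 3.79% of all probes in either direction and 1.82% lower. Cenpa, the histone variant that marks the centromere, read 13.36, 13.01, 13.35 and 13.33 at passage 23 and 13.42, 13.20, 13.12 and 13.43 at passage 24. At passages 20 and 21 it read 13.51, 13.51, 13.53 and 13.49, and 13.57, 13.42, 13.45 and 13.53. The groups overlapped only narrowly, with the KSR value of passage 24 above the SB value of passage 21, and the change was -0.22 ± 0.06 (1.17-fold lower, adjusted p = 0.0314). The call was lost in 14 of 27 alternatives, the adjusted p reaching 0.192 without the SB cultures.

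Aurkb (0.22, adjusted p = 0.0517), Nusap1 (0.19, 0.0589) and Hmmr (0.16, 0.219) were the highest of this comparison, and Ube2c (-0.28, 0.0653) and Gmnn (-0.18, 0.130) were low with Cenpa. The further probe of Nusap1 was at -0.04 (adjusted p = 0.814). The median of the 40 genes was -0.02 and 17 were above 0. With the arrays set to a common median in place of quantiles, the median of all probes was -0.12, and 10 members were called, 5 higher (Aurka, Aurkb, Nusap1, Mcm5 and Tyms) and 5 lower. Of all 24606 probes, 657 were called higher and 6099 lower with this scaling, so calls were frequent outside the members too. Of the 5 lower members, Ccnb2, Bub1, Kif11 and Cenpe were above background on no array, and Ube2c was the other.

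Between passage 21 and passage 20, 0 of 40 genes were called with limma, against 0.882% of all probes, and 11 had an unadjusted p under 0.05, against 12.5% of all probes. Cdc20 came nearest, with 11.86, 11.89, 11.83 and 11.70 at passage 21 against 12.13, 12.24, 12.03 and 12.12 at passage 20. Its groups did not overlap and the log2 change was -0.31 (adjusted p = 0.0536). Further probes of Cdc20 were at -0.16 (adjusted p = 0.347) and -0.28 (0.154). Hmmr (-0.35, adjusted p = 0.0945) and Rrm1, the large subunit of ribonucleotide reductase (-0.24, 0.172), were also low. Gmnn was at 0.31 (adjusted p = 0.112), with all 4 values at passage 21 above those at passage 20, and Ttk was at 0.36 (0.150). Orc1, highest of all, was at background.

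**Figure D5:**
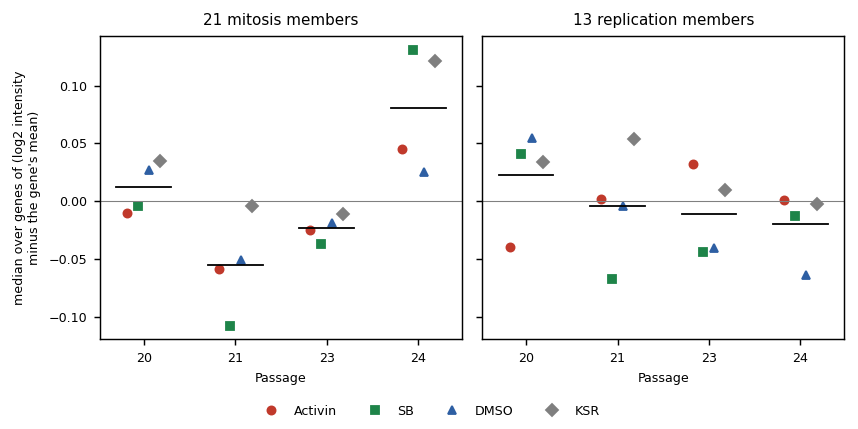
Median over genes of the log2 intensity minus each gene's mean (vertical axis), by passage (horizontal axis), for the 21 mitosis and 13 replication genes above background, with 1 point per array coloured by treatment and a bar at the mean of 4 arrays. The mitosis genes lie between -0.11 and 0.13, with the 4 arrays of passage 24 above 0, and the replication genes between -0.07 and 0.05.

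Regulators and neighbours of the family were uneven at passage 24 as well. Of 22 E2F, Rb and MuvB regulators, E2f2 (-0.69, adjusted p = 0.000161), Cdc25a (-0.32, 0.0385) and E2f1 (-0.28, 0.0387) fell, and Tfdp2, an E2F partner (0.42, 0.00557), and Foxm1, a transcription factor of mitosis genes (0.34, 0.0493), rose. Of 40 other mitosis genes 3 rose and 0 fell, and these were Smc4 of condensin (0.58, adjusted p = 0.00454) and the kinetochore genes Spc25 (0.45, 0.0134) and Ndc80 (0.41, 0.0317). Of 37 other replication genes Orc5 (0.35, 0.0325) and Prim1, a primase subunit (0.29, 0.0368), rose and Pold1, a replicative polymerase (-0.32, 0.0307), fell. In the 14 p53 target genes Zmat3 rose (0.33, 0.0385), and 0 of 13 reference genes passed. E2f1 is named here after its value was seen. Between the later and earlier pairs, Ung, which removes uracil from DNA, was lower (-0.31, 0.0109), and E2f8 passed with a probe above background on no array.

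Markers of another cell type moved with passage on the same arrays. The summed non-normalized intensity of 10 primitive endoderm markers was 2858 to 3146 at passage 23 and 3336 to 3884 at passage 24. At passages 20 and 21 it was 774 to 1042 and 733 to 1086. At the later pair 7 of the 10 were called higher and 1 lower, against 3.79% of all probes called in either direction. Dab2 (2.27), Amn (1.31) and Gata6 (1.21) led the higher ones, and Gata4 was the lower one (-0.30, adjusted p = 0.0202). Sox17 and Sox7 were among the higher ones although, like Foxa2 and Lama1, they were above background on no array. Between passages 24 and 23, Dab2 alone of the list was called (0.29, adjusted p = 0.0387), and with it the Nodal targets Lefty2 (0.55, 0.00574), Tdgf1 (0.52, 0.00574), Fgf15 (0.46, 0.0118) and Lefty1 (0.42, 0.0196) and the ES cell marker Zfp42 (0.38, 0.0370). The summed non-normalized intensity of the ES cell markers was 45403 to 52798 at passage 24, against 39912 to 48129 at passage 23. Mean non-normalized intensity over all probes was 691 to 760 per array at passage 24, against 667 to 721 at passage 23. The part of these markers in the passage differences of the S phase and mitosis genes was not tested.

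How much a gene varied was itself unequal. Over the 16 arrays the SD of the 34 genes above background had a median of 0.14 on the log2 scale, the same as for all 10740 such probes. Of these genes Ube2c (0.27), Ttk (0.27), Pcna (0.27) and Hmmr (0.21) varied most, and Mcm4 (0.07), Mcm7 (0.08) and Prc1, which bundles microtubules of the central spindle (0.08), least. The range of Pcna over all 16 arrays was 1.83-fold and that of Mcm4 1.19-fold.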

How the data were processed

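The authors hybridised RNA from 16 cultures to Illumina MouseRef-8 v2.0 arrays and, per the labels, read them in BeadStudio (version not given in the sources used here). The deposited non-normalized intensity values had been corrected for background within arrays by the authors and hold negatives. A second deposited table holds their intensity values after normalization between arrays, with a floor of 40, and served as an alternative. The number of arrays, 4 a group, limits the precision.

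Background was modelled with normexp (offset 50), values were quantile-normalized, and all tests were run on the log2 scale with limma 3.58.1 in R 4.3.3. Treatment comparisons used a model of treatment, and passage comparisons a model of passage and treatment. P-values were adjusted (Benjamini-Hochberg) over all 24606 probes, of which 20980 carried 1 gene symbol, 1 several and 3625 none. The code was tested on simulated data. Above background refers to the 95th percentile of 1189 receptor probes. Replicate numbers were passage numbers.

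The members and lists were chosen with earlier results of these data known. Named by rule were up to 12 members past the threshold per comparison, the 3 highest and 3 lowest where fewer than 4 passed, a fixed set of 15 genes covering each role, and up to 4 passing genes of each further list. Promoter sequences came from RefSeq (GRCm38.p6). Gene names were those of the array annotation.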

Additional observations from a re-analysis of the deposited data

Results flagged for a closer look

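In 16 of 240 sets of 4 arrays, over the genes named in the report, 1 array stood apart from the other 3 by Dixon's criterion (the gap to the nearest array over the range of the set). Chance flags about 1 in 20 groups. All values here are log2 intensities.

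Among the treatment groups, Cdc20 was high in the SB culture of passage 20 (12.24, the others 11.86 to 11.92), Cdk1 in the SB culture of passage 24 (11.69, the others 11.49 to 11.50) and Gmnn in the SB culture of passage 21 (10.09, the others 9.56 to 9.59). With Activin, Hmmr was low at passage 21 (8.12, the others 8.55 to 8.61), Rfc3 high at passage 20 (9.98, the others 9.52 to 9.59) and Top2a high at passage 24 (12.36, the others 11.998 to 12.06). In KSR alone, Orc1 was high at passage 21 (6.69, the others 6.20 to 6.25), although above background on no array.

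Within passages the SB culture was most often the one apart. At passage 23 it was low for Aurka (11.39, the others 11.55 to 11.58), Cenpa (13.01, the others 13.33 to 13.36) and Ttk (7.65, the others 7.84 to 7.85). At passage 24 it was high for Aurkb (11.13, the others 10.88 to 10.91) and low for Tyms (11.31, the others 11.67 to 11.74). Cenpe, above background on no array, was high in the SB culture at passage 20 (6.66, the others 6.35 to 6.39) and at passage 24 (6.41, the others 6.21 to 6.23). Mad2l1 was low in the DMSO culture of passage 21 (10.73, the others 10.84 to 10.85), and Rrm2 was low in the Activin culture of passage 20 (10.43, the others 10.55 to 10.57).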

How the results depend on the processing

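The count of called members was 0 in all 28 alternatives of each treatment comparison, including the fit with passage as a replicate block, where it was 0 in all 4. The replicate block ended or added no call there. Same-passage arrays of different treatments correlated at r of 0.0976 to 0.325 (24 pairs) after removal of group means, against -0.238 to 0.0995 (72 pairs) for different passages, and 16 of 16 arrays were on average nearest to their own passage, which is a hint of pairing from the data and not from the design. Directions reversed for Orc1, at background, in Activin minus DMSO (-0.0277 without the Activin culture of passage 21, -0.0526 without passage 21, at most 0.419) and for Ttk in DMSO minus KSR (-0.0297 without passage 21, at most 0.278).

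The joint passage test called 8 members, 5 with intensities under 16 set to 16, 5 with the authors' normalized values, 2 with an offset of 16 and 13 with only probes above background tested. It called 2 without the Activin group, 1 without the SB group, 1 without the DMSO group, 4 without the KSR group, 4 without a treatment term and 2 to 7 without single arrays. For passage 24 against 23, the 4 calls became 2 with median scaling, 2 with an offset of 16, 2 without a treatment term, 2 without the Activin or KSR group, 1 without the SB or DMSO group, 1 by 1.5-fold alone and 2 to 4 without single arrays. With the floor of 16 or the authors' values 2 members were higher (Ccna2 and Pcna) and 1 lower (Kif2c). The median of 0.04 was -0.000792 without the SB group and -0.00106 to 0.0552 without single arrays.

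For the later against the earlier passages, the 1 call became 10 with median scaling (median 0.0259), 0 with an offset of 16, 4 with only probes above background, 2 with the mean of all probes of a gene, 2 without a treatment term, 0 without the SB, DMSO or KSR group, 0 by 1.5-fold alone and 0 to 4 without single arrays. It was 4 without the Activin culture of passage 21, 3 without the KSR culture of passage 24 and 0 without any 1 of the 4 SB cultures. With median scaling 657 probes were called higher and 6099 lower, against 485 and 447. For passage 21 against 20, the 0 calls became 1 with the floor of 16, 1 with the authors' values, 4 with only probes above background, 1 without a treatment term, 2 without the KSR group and 0 to 2 without single arrays, with 2 without the KSR culture of passage 21. Restricting the test to probes above background adjusts over fewer probes, and leaving out arrays leaves fewer samples. The cause of the other shifts was not tested. The 95% interval of a treatment change had a median half-width of 0.20 on the log2 scale, and 6 of the 40 genes were at background.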
